A study of Rattus norvegicus with 30 samples.

Results

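The data described here are the 7 heart arrays taken 3 h after treatment, 4 from isoproterenol-treated rats and 3 from vehicle-treated rats, out of 30 arrays in the series. They were chosen by the sampling time in their titles, and all 31099 probe sets of the deposited table were considered, of which 24292 were bright enough to be tested. The study followed gene expression in the hearts of male Crl:Wi(Han) rats, an outbred Wistar stock, at 1, 3, 24 and 72 h after isoproterenol or vehicle, with 3 to 5 arrays in each of 8 groups. The design text gives 48 h for the last sampling, where the labels give 72 h. The isoproterenol group is labelled with a dose of 0.5, in mg/kg/ml in the titles and in mg in the design text, so that the amount per body weight cannot be stated, and the vehicle group has a dose of 0. Neither the vehicle's composition, nor the ages of the rats, nor the hour of day of sampling is known from the sources used, and no genetic change is labelled in either group. The titles call every array a biological replicate, but the sources used here do not say that no animal gave more than 1 array, and p-values then measure the spread between these samples, which may be technical in part.

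Isoproterenol, a synthetic catecholamine, is an agonist of beta-adrenergic receptors. In heart muscle cells these receptors raise cyclic AMP, which activates protein kinase A, and that kinase phosphorylates calcium-handling proteins and the transcription factor CREB. CREB and the MAP kinases switch on immediate early genes, which encode transcription factors such as FOS, EGR1 and the NR4A receptors and whose transcripts are short-lived. A second set of genes follows, and many of its members encode inhibitors of the same pathways.

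Values below are log2(intensity + 16) after quantile normalization between arrays, in the order of the replicate numbers, and a change is the isoproterenol mean minus the vehicle mean in log2 units with its standard error. On that scale the change of a dim probe set is understated. Adjusted p-values are from limma, fitted to all 30 arrays and adjusted by the Benjamini-Hochberg method over the 24292 probe sets, and a gene is said to have risen or fallen where that value was under 0.05. Each gene is represented by its brightest probe set. A two-sided exact rank test of 4 against 3 arrays cannot reach 0.05, so no such test is given for single genes.

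At 3 h, 1482 probe sets were higher with isoproterenol, 6.1% of those tested, and 1282 were lower, 5.28% of those tested. The count of falls was the less stable of the pair. Without vehicle replicate 2 there were 1116 rises and 753 falls, without vehicle replicate 1 there were 1170 rises and 796 falls, and with median centring in place of quantile normalization there were 1290 rises and 626 falls, so that 67.33% of the calls were rises, against 53.62% with quantile normalization. With the 7 arrays of 3 h alone in the fit there were 893 rises and 461 falls. Without any normalization between arrays 295 rose and 183 fell, and the median change of all probe sets lay at -0.19, against -0.05 with quantile normalization. In 2064 probe sets, 8.5% of those tested, all 4 isoproterenol arrays lay above all 3 vehicle arrays, and in 2187, 9% of those tested, all lay below.

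Counted by gene, 864 of 12451 genes rose (6.94%) and 788 fell (6.33%). The counts of gene lists below are to be read beside these shares. The rises were the larger changes. Of the genes that rose, 427 rose by over 1 log2 unit, 94 by over 2 and 35 by over 3. Of the genes that fell, 186 fell by over 1, 6 by over 2 and 0 by over 3. The median change was 0.99 among the risers and -0.79 among the fallers, beside -0.06 over all genes tested. Isoproterenol and vehicle arrays did not overlap in 782 of the risers (90.51%) and in 670 of the fallers (85.03%). Of all probe sets tested, 8.5% had all isoproterenol arrays above all vehicle arrays and 9% had all below. Those shares are by probe set, and no share over all genes is given. The risers and fallers were called from the same arrays, which favours groups apart, so these counts are not separate evidence of a change. Among the risers 91 had a vehicle mean below the filter level, an intensity of 23, and among the fallers 110 had an isoproterenol mean below it, and for these the change is a lower bound. Among the genes named below this holds for the rises of Fosb, Fosl1, Angptl4, Sphk1, Cxcl1, Ccl7, Ptgs2, Il6, Il1r2, Tnfaip6, Map3k8, Klf5, Plaur and S100a8 and for the falls of Nxpe1, Btnl9, Ccdc102a, Ctns and Il15. A gene's other probe sets did not always pass: of 322 risers with several probe sets tested, all of them rose in 78, some did not pass in 242, and another fell in 2. Of 269 such fallers, all probe sets fell in 40, some did not pass in 227, and another rose in 2. Among the 15 largest falls, 1 of 2 probe sets fell for Aplnr, Car4 and Ccdc102a. For Klf15 it was 2 of 3, and for Ky and Nrp1 2 of 2.

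**Figure D1:**
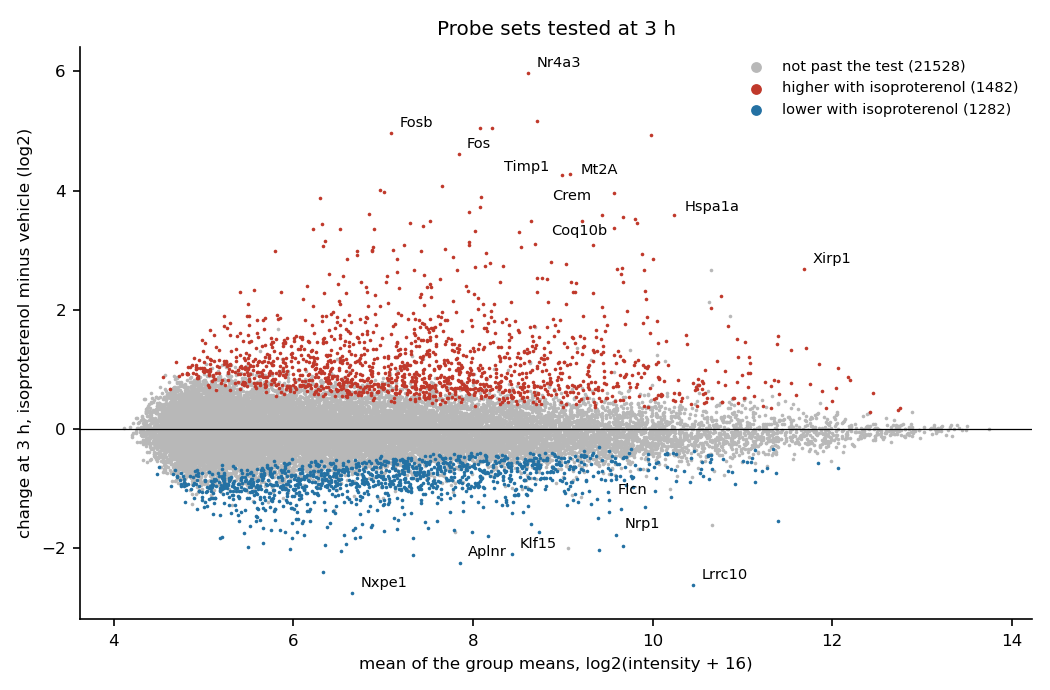
Each point is 1 of the 24292 probe sets tested, with the mean of the isoproterenol and vehicle group means on the x axis, in log2(intensity + 16), and the log2 change at 3 h, isoproterenol minus vehicle, on the y axis. The 1482 probe sets in red were higher and the 1282 in blue lower at a limma adjusted p under 0.05, and the rises reach 5.97 (Nr4a3), whereas the falls reach -2.76 (Nxpe1).

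The 7 arrays differed among themselves. Median deposited intensities lay between 21.2 and 32 on the isoproterenol arrays and between 26.8 and 40.7 on the vehicle arrays. The first principal component of the normalized values, with 36.2% of the variance, separated the groups, and the second, with 18.8%, set vehicle replicate 3 apart from the other 6. The log2 difference between the 3' and 5' actin control probe sets, a sign of RNA quality, was 1.71 to 2.05 on the isoproterenol arrays and 1.06, 0.81 and 2.20 on the vehicle arrays. The same difference for the GAPDH control probe sets overlapped between the groups, at 0.35 to 0.51 on the isoproterenol arrays and 0.26 to 0.58 on the vehicle arrays. The part of RNA quality in the results was not tested. Array numbers in the labels run from 38 to 41 for isoproterenol and from 7 to 9 for vehicle, so the order of the arrays and the treatment cannot be told apart. Markers of heart muscle cells were the brightest of the cell type lists: the 9 measured summed to 70360 to 72130 in normalized intensity on isoproterenol arrays and 71580 to 72470 on vehicle arrays, and 0 of them rose or fell.

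The subunits of the transcription factor AP-1 and their partners rose together, with 10 of 15 measured members higher and 0 lower, and a median change of 1.18. Fosb, a FOS-family subunit, was 9.09, 10.55, 8.94 and 9.72 on isoproterenol arrays, against 4.83, 4.68 and 4.31 on vehicle arrays. The lowest isoproterenol array lay far above the highest vehicle array, where Fosb was below the filter level, and the change of 4.97 ± 0.27 (adjusted p = 2.53e-14) is a lower bound. Fos itself was 8.57, 11.71, 9.72 and 10.59 on isoproterenol arrays, against 5.65, 5.19 and 5.78 on vehicle arrays. The isoproterenol arrays spread widely, with replicate 1 lowest and replicate 2 highest, but none overlapped a vehicle array, and the change was 4.61 ± 0.46 (adjusted p = 1.27e-08). Atf3, a stress-induced member of the ATF family that can repress its targets, was 8.88, 10.95, 9.31 and 9.65 on isoproterenol arrays, against 4.94, 5.65 and 6.26 on vehicle arrays. Replicate 2 was again the highest isoproterenol array, and the change was 4.08 ± 0.38 (adjusted p = 3.77e-09). Maff, a small MAF protein that pairs with other basic leucine zipper factors, was 9.64, 10.00, 9.38 and 9.72 on isoproterenol arrays, against 6.56, 6.30 and 6.22 on vehicle arrays. Its isoproterenol arrays lay close together, far above vehicle, and its change of 3.32 ± 0.19 had an adjusted p of 9e-14. Fosl1 changed by 2.56 ± 0.30. The other members that rose were Junb, Fosl2, Mafk, Jun and Jund. Without normalization between arrays 6 of the 15 members rose, and without single arrays 8 to 11 rose.

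Among the NR4A, EGR and other immediate early factors 18 of 38 measured members rose and 1, Heyl, fell, with a median change of 0.81. The largest change at 3 h was that of Nr4a3, an orphan nuclear receptor. Nr4a3 was 11.41, 11.85, 11.55 and 11.61 on isoproterenol arrays, against 5.55, 5.73 and 5.61 on vehicle arrays. The 4 isoproterenol arrays and the 3 vehicle arrays each lay close together, and the change was 5.97 ± 0.41 (adjusted p = 4.9e-12). Nr4a2, a close relative, was 7.69, 8.42, 7.47 and 8.36 on isoproterenol arrays, against 6.0, 5.91 and 4.67 on vehicle arrays. Its arrays did not overlap either, and its change was 2.46 ± 0.28 (adjusted p = 1.28e-07). Egr1, a zinc finger factor induced through the serum response factor, was 10.64, 11.84, 11.45 and 11.87 on isoproterenol arrays, against 7.45, 8.32 and 7.92 on vehicle arrays. Replicate 1 was the lowest isoproterenol array, and all 4 lay above the vehicle arrays, with a change of 3.55 ± 0.37 (adjusted p = 2.41e-08). Its relative Egr2 changed by 3.01 ± 0.36. Myc, which drives growth and ribosome production, was 8.14, 9.68, 8.74 and 9.57 on isoproterenol arrays, against 5.35, 5.85 and 5.52 on vehicle arrays. The change was 3.46 ± 0.34 (adjusted p = 1.14e-08). Without normalization between arrays 11 of the 38 rose. Of the 13 Kruppel-like factors measured, Klf5, Klf6, Klf10 and Klf4 rose and Klf15 fell. Klf5 and Klf10 missed the threshold without vehicle replicate 2 (limma adjusted p = 0.0526 and 0.116), and without normalization between arrays none of the 4 rises passed. As the mean of its probe sets Klf5 changed by 0.40 and did not pass (limma adjusted p = 0.157).

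Genes that cyclic AMP and CREB are known to induce, several of which damp the pathway, also rose, with 20 of 34 measured members higher, 1 lower (Creb1) and a median change of 0.94. Crem, whose internal promoter gives the repressor ICER, was 11.10, 11.44, 11.13 and 11.27 on isoproterenol arrays, against 7.76, 7.67 and 7.49 on vehicle arrays. The groups were tight and far apart, and the change was 3.59 ± 0.17 (adjusted p = 1.56e-15). Crem has 6 probe sets among those tested, and 5 of them rose, by 1.70 to 3.59, while the sixth changed by 0.63 (adjusted p = 0.125). Akap12, a scaffold that holds protein kinase A near the beta receptor, was 10.78, 11.70, 10.30 and 11.23 on isoproterenol arrays, against 8.23, 8.51 and 8.19 on vehicle arrays. All isoproterenol arrays lay above the vehicle arrays, with a change of 2.69 ± 0.19 (adjusted p = 4.9e-12). The list's other rises included the phosphodiesterases Pde4b, Pde10a, Pde8a, Pde3b and Pde7a, which break down cyclic AMP, or cyclic GMP as well, and the kinase Sik1. Creb1 itself, at -0.98 ± 0.33, had an adjusted p of 0.0495 and missed the threshold without vehicle replicate 2 (0.323), vehicle replicate 1 or isoproterenol replicates 1, 2 or 4 (0.0518 to 0.167). Without normalization between arrays 14 of the 34 rose. Of 31 receptors and signalling proteins of the beta-adrenergic pathway, 1 rose (3.226%) and 2 fell (6.452%), or 4 without vehicle replicate 3. Of all genes tested 6.94% rose and 6.33% fell, so the list's share of falls was near that of all genes. The rise was Prkar2b, a regulatory subunit of protein kinase A, at 0.93 ± 0.19 (adjusted p = 0.00116, but 0.389 without normalization), and the falls were Adra1d, the alpha-1D receptor, at -1.22 ± 0.27, and the anchor protein Akap1 at -0.70 ± 0.18, which did not pass with median centring (adjusted p = 0.176). Adrb1 changed by -0.27 ± 0.23 (adjusted p = 0.504).

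**Figure D2:**
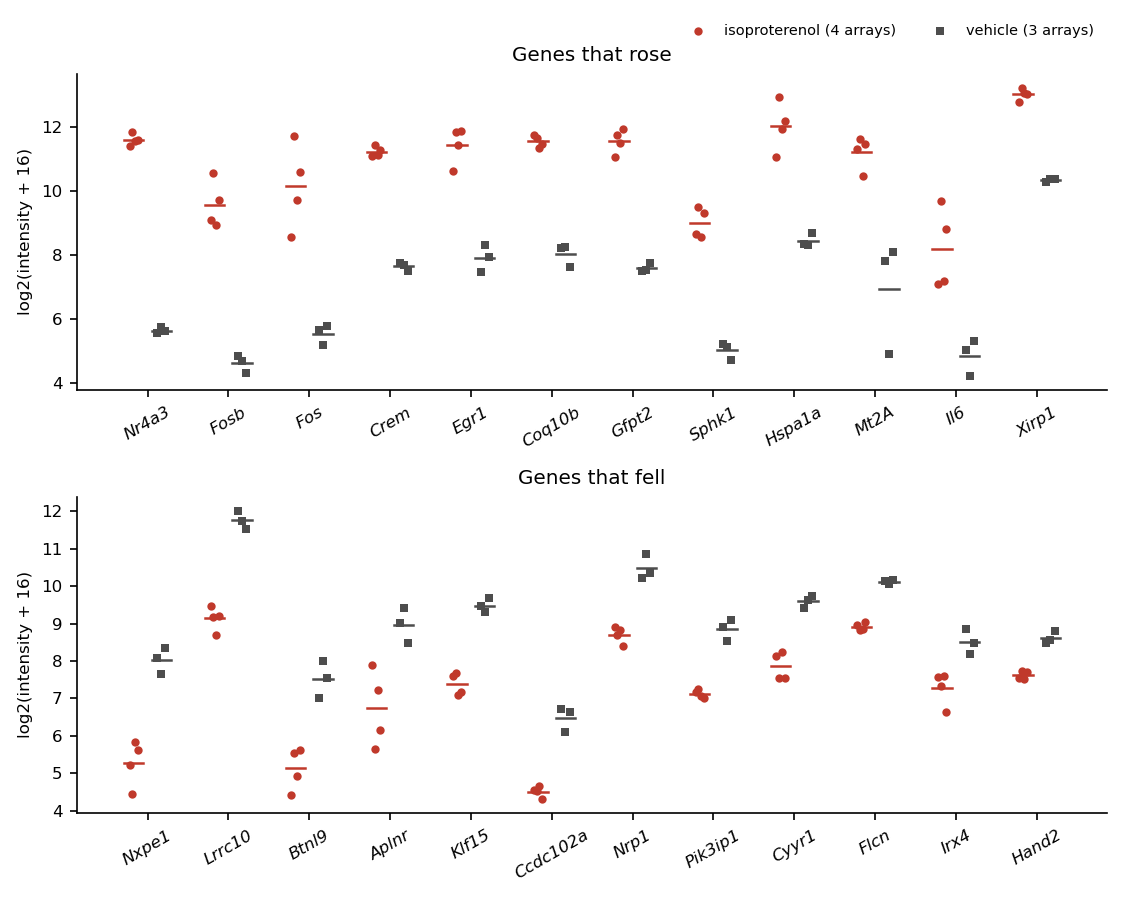
Normalized log2(intensity + 16) on the y axis for 12 genes that rose and 12 that fell, with a red circle for each of the 4 isoproterenol arrays, a grey square for each of the 3 vehicle arrays and a line at each group mean. The groups do not overlap in any of the 24 genes, but most of these genes were named by a rule that requires groups apart. The isoproterenol arrays spread more for Fos (8.57 to 11.71) and Il6 (7.10 to 9.69) than for Nr4a3 (11.41 to 11.85) or Ccdc102a (4.32 to 4.65).

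The DNA before the start sites of some of these genes holds the binding motif of CREB. The stretches below are the 250 bases before annotated starts, from RefSeq on build GRCr8, read 5' to 3' on the plus strand, where all of these genes lie. They are shown because Crem, Maff, Ell2 and Egr1 were among the strongest rises and Lrrc10 was among the strongest falls, and they were chosen after their values and motifs were seen. Capitals mark the cyclic AMP response element TGACGTCA, its core TGACG or CGTCA, and, in Egr1 alone, the CArG box that the serum response factor binds. The first pair lies before 2 of the start sites of Crem, at chr17:58984547-58984796 and chr17:58985240-58985489. Maff is at chr7:112792537-112792786, Ell2, which encodes an elongation factor of RNA polymerase II, at chr2:6921602-6921851, Egr1 at chr18:26736828-26737077 and Lrrc10 at chr7:54572685-54572934.
Crem, first stretch: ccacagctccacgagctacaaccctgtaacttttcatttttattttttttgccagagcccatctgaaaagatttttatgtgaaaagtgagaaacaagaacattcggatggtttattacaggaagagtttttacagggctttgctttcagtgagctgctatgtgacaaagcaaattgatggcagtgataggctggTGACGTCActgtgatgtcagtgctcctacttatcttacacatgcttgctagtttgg
Crem, second stretch: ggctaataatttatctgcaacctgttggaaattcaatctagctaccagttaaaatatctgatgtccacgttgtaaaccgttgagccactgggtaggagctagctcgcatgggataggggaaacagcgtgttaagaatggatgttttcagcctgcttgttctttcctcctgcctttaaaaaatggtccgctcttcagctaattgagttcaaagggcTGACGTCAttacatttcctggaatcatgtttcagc
Maff: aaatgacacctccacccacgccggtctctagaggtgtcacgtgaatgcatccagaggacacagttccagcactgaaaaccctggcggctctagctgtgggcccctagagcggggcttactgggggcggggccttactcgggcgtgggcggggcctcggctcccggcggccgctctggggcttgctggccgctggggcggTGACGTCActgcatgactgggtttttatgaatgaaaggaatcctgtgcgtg
Ell2: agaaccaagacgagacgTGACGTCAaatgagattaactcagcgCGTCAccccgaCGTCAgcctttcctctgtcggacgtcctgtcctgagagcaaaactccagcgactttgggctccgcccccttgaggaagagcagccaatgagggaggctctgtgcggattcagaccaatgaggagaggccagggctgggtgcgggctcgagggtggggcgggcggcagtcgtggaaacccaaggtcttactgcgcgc
Egr1: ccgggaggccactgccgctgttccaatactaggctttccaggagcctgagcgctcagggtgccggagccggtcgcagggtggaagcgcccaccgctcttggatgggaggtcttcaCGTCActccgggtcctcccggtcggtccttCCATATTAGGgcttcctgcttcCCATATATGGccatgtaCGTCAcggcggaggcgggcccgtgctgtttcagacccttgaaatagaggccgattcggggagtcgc
Lrrc10: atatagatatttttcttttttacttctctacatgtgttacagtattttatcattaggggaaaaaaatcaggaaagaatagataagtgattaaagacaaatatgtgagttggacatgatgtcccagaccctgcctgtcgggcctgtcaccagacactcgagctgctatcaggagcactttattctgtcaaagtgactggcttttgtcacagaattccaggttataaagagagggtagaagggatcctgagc
Each Crem and Maff stretch holds 1 full element, Ell2 holds 1 full element among 4 cores (a full element counts as 2 cores), Egr1 holds 2 cores and 2 CArG boxes, and Lrrc10 holds none of these. Fos, Atf3 and Nr4a3 have no entry in the promoter table used here.

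Windows from 250 bases before to 50 after the start were found for 715 of the 864 genes that rose and 674 of the 788 that fell, and motifs were searched on both strands. The full element TGACGTCA was in 5.18% of 792 windows of genes that rose and in 1.54% of 780 windows of genes that fell, beside 2.92% of 11656 windows of all genes tested. Among the 87 windows of genes that rose by over 2 log2 units the share was 8.05%. The core TGACG was in 39.4% of the windows of genes that rose, 25% of those that fell and 29.7% of all tested. The AP-1 motif TGACTCA was in 5.43%, 2.56% and 3.76% of the windows of these sets, and in 12.6% for rises over 2 log2 units. The CArG box was in 1.64%, 1.41% and 1.44%. These shares are descriptions without a test, and a match is not shown to be a bound site.

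The lists of genes that regulate the ERK and G protein pathways held more rises than falls, and most members did not pass the test. Of 21 MAP kinase phosphatases, Sproutys and related genes, 8 rose (38.1%) and 1 fell (4.76%), beside 6.94% and 6.33% of all genes tested. There were 3 rises without normalization between arrays and 3 falls without isoproterenol replicate 2. Errfi1, an inhibitor of the EGF receptor, was 8.83, 10.52, 9.12 and 10.01 on isoproterenol arrays, against 6.70, 6.55 and 6.77 on vehicle arrays. All 4 isoproterenol arrays lay above the vehicle arrays, with a change of 2.95 ± 0.31 (adjusted p = 4.32e-08). Spry2, an inhibitor of receptor tyrosine kinase signalling, was 9.17, 10.21, 9.62 and 10.06 on isoproterenol arrays, against 8.13, 8.03 and 8.23 on vehicle arrays. Its arrays did not overlap, and its change was 1.64 ± 0.22 (adjusted p = 2.61e-06). Map3k8, an upstream kinase of ERK, changed by 1.83 ± 0.28. The fall was Dusp7, a phosphatase of ERK, at -1.10 ± 0.24 (adjusted p = 0.00178, but 0.118 without normalization). In the list of RGS proteins and small GTPases 7 of 25 rose (28%) and 3 fell (12%). Gem, which inhibits L-type calcium channels, changed by 1.81 ± 0.30, and Rgs2, which speeds the shut-off of Gq proteins, by 1.73 ± 0.28. Rem1, a relative of Gem, fell, at -1.09 ± 0.18 (adjusted p = 8.39e-05). Rgs5 fell by 0.82 and Rgs4 by 0.72. Rgs5 did not pass with median centring (adjusted p = 0.0618), and Rgs4 did not pass under 10 alternatives, among them the removal of any of the 3 vehicle arrays (0.0579 to 0.0893).

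Cytokines, chemokines and prostaglandin synthesis made up a further group of rises, with 10 of 37 measured members higher and 3 lower, and 8 and 0 without normalization between arrays. Cxcl1, a chemokine for neutrophils, was 6.93, 9.14, 7.76 and 9.11 on isoproterenol arrays, against 4.55, 4.36 and 4.16 on vehicle arrays. Vehicle arrays were below the filter level and isoproterenol replicate 1 was the lowest of its group, and the change of 3.88 ± 0.37 (adjusted p = 5.13e-09) is a lower bound. Il6, the cytokine that signals through gp130, was 7.10, 9.69, 7.19 and 8.81 on isoproterenol arrays, against 5.01, 4.22 and 5.32 on vehicle arrays. Replicates 2 and 4 were the high arrays here as for Cxcl1, and the change of 3.35 ± 0.40 (adjusted p = 4.03e-07) is also a lower bound. Ccl2, a chemokine for monocytes, was 9.75, 10.42, 10.86 and 10.55 on isoproterenol arrays, against 6.37, 7.03 and 7.33 on vehicle arrays. Its 4 isoproterenol arrays lay closer together, and its change was 3.49 ± 0.43 (adjusted p = 5.95e-07). Ccl7 changed by 3.45 ± 0.40 and Ptgs2, the inducible cyclooxygenase, by 3.36 ± 0.34, both from vehicle means below the filter level. The other rises were Icam1, Cxcl2, Selp, Cxcl3 and Vcam1. Those listed as lower were Cxcl12, Il15 and Cx3cl1, and without vehicle replicate 2 only 1 of the list was lower. Among cytokine receptors and the JAK-STAT pathway 12 of 32 rose and 0 fell, or 4 without normalization. They included the decoy receptor Il1r2 at 2.30 ± 0.30, and the inhibitors Socs3 at 1.70 ± 0.29 and Socs5 at 1.51 ± 0.19. Of 23 NF-kB subunits and inhibitors 6 rose, but 3 or 4 when any of the 7 arrays was left out and 3 with median centring. Tnfaip6, a secreted anti-inflammatory protein, at 3.36 ± 0.30, and Nfkbiz, a nuclear IkB protein, at 2.07 ± 0.30, kept their calls in all alternatives run, as did the fall of Traf2 at -1.12 ± 0.21.

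Of 8 neutrophil markers measured 4 rose (50%), 0 fell and 4 did not pass, beside 6.94% and 6.33% of all genes tested that rose and fell. The summed normalized intensity of the 8 measured was 538.7 to 741.2 on isoproterenol arrays and 184.5 to 264.9 on vehicle arrays, and none of them was below the filter level on all 7 arrays. The rises were Il1r2, S100a9, S100a8 and Lcn2, of which Il1r2 is also counted among cytokine receptors and Lcn2 among glucocorticoid targets. S100a9, a calcium-binding protein of neutrophils, was 7.69, 8.13, 7.49 and 8.14 on isoproterenol arrays, against 4.94, 6.34 and 6.12 on vehicle arrays. The groups did not overlap, and the change was 2.06 ± 0.37 (adjusted p = 0.00021). S100a8 changed by 1.91 ± 0.32, from a vehicle mean below the filter level. Lcn2 changed by 0.96 ± 0.25 but missed the threshold without vehicle replicate 3 (adjusted p = 0.152). Of 19 monocyte and macrophage markers Cd14 and Mrc1 rose, Cd14 not without vehicle replicate 1 (adjusted p = 0.0509), and the sum of the list was 5881 to 6685 on isoproterenol arrays and 6207 to 7388 on vehicle arrays, with Itgam and Ccr2 below the filter level throughout. The part of infiltrating cells in the cytokine changes was not tested. In these bulk samples more cells of a type and more RNA per cell cannot be told apart, nor can fewer cells and less RNA per cell.

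Protective genes against oxidants, misfolded proteins and amino acid shortage rose in part. In the list of oxidative stress, NRF2 targets and metallothioneins 7 of 34 rose and 4 fell. Mt2A, a metal-binding metallothionein, was 11.31, 11.63, 10.46 and 11.48 on isoproterenol arrays, against 7.82, 4.90 and 8.09 on vehicle arrays. Vehicle replicate 2 lay far below the other vehicle arrays, and the change was 4.28 ± 0.48 (adjusted p = 1.05e-07). Srxn1, which repairs oxidised peroxiredoxins, was 7.81, 9.01, 8.26 and 8.58 on isoproterenol arrays, against 5.99, 5.48 and 4.63 on vehicle arrays. Its groups did not overlap, and its change was 3.05 ± 0.27 (adjusted p = 1.1e-09). Txnrd1, thioredoxin reductase, changed by 1.90 ± 0.19. The 4 falls, Gstm2, Sod3, Gpx3 and Gstm1, lay between -0.64 and -0.93, 1 was left without vehicle replicate 1 or 2, and 0 with median centring. Of 33 heat shock chaperones 11 rose and 0 fell, with 3 rises without normalization between arrays. Hspa1a, the inducible HSP70, was 11.06, 12.95, 11.95 and 12.18 on isoproterenol arrays, against 8.34, 8.30 and 8.68 on vehicle arrays. Replicate 2 was highest and replicate 1 lowest, without overlap with vehicle, and the change was 3.60 ± 0.36 (adjusted p = 1.28e-08), though the probe set may also read the near-identical Hspa1b. Dnajb4, an HSP40 co-chaperone, changed by 1.45 ± 0.14, and Hsf2, a heat shock factor, by 1.14 ± 0.22 (adjusted p = 0.000416, but 0.191 without normalization). In the list of endoplasmic reticulum stress and amino acid response genes 11 of 40 rose and 1 fell, with 3 rises without normalization. The leading rises were amino acid carriers. Slc7a5, the light chain of the large neutral amino acid carrier, was 7.89, 8.41, 8.08 and 8.67 on isoproterenol arrays, against 6.13, 5.17 and 6.09 on vehicle arrays. Its change was 2.47 ± 0.26 (adjusted p = 3.17e-08). Its heavy chain Slc3a2 changed by 1.37 ± 0.14 and the cationic amino acid carrier Slc7a1 by 2.10 ± 0.20.

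Genes of ribosome assembly and polyamine metabolism, one of the longer lists, had the largest number of rises of those listed, 32 of 67 measured (47.76%). There were 3 falls (4.478%), beside 6.94% of all genes tested that rose and 6.33% that fell, and the median change was 0.55. By share of rises the AP-1 (66.67%), cyclic AMP and CREB (58.82%) and glucocorticoid target (57.14%) lists stood higher. Rrp12, a factor that exports pre-ribosomes, was 8.41, 8.30, 8.0 and 8.61 on isoproterenol arrays, against 6.14, 5.53 and 5.60 on vehicle arrays. The groups did not overlap, and the change was 2.57 ± 0.32 (adjusted p = 8.39e-07). Nop58, a core protein of box C/D small nucleolar particles, was 10.49, 10.72, 11.10 and 11.21 on isoproterenol arrays, against 8.73, 9.11 and 9.18 on vehicle arrays. All isoproterenol arrays were above all vehicle arrays, with a change of 1.87 ± 0.23 (adjusted p = 4.07e-07). Sat1, which acetylates polyamines for export or breakdown, changed by 1.75 ± 0.29. Other members that rose include the nucleolar proteins Ddx56, Ddx21, Heatr1, Gar1, Dkc1, Nop14, Fbl, Nop56, Nop2, Bop1 and Ncl, and Odc1 and Azin1 of polyamine synthesis. The falls were Polr1a, Mxi1 and Oaz2. The median change of the list was 0.09 at 1 h and 0.50 at 24 h, with 3 and 25 rises, and Azin1, Nop58, Rrp12, Rrs1 and Ddx21 were higher at 3 h than at 1 h by the test of the difference. The count rests on the normalization: 4 of the 67 rose without any, 29 with median centring, 23 with the 3 h arrays alone in the fit, and 24 to 30 when an array was left out, and 1 of the 3 falls was left without vehicle replicate 1 or isoproterenol replicates 2 or 3.

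**Figure D3:**
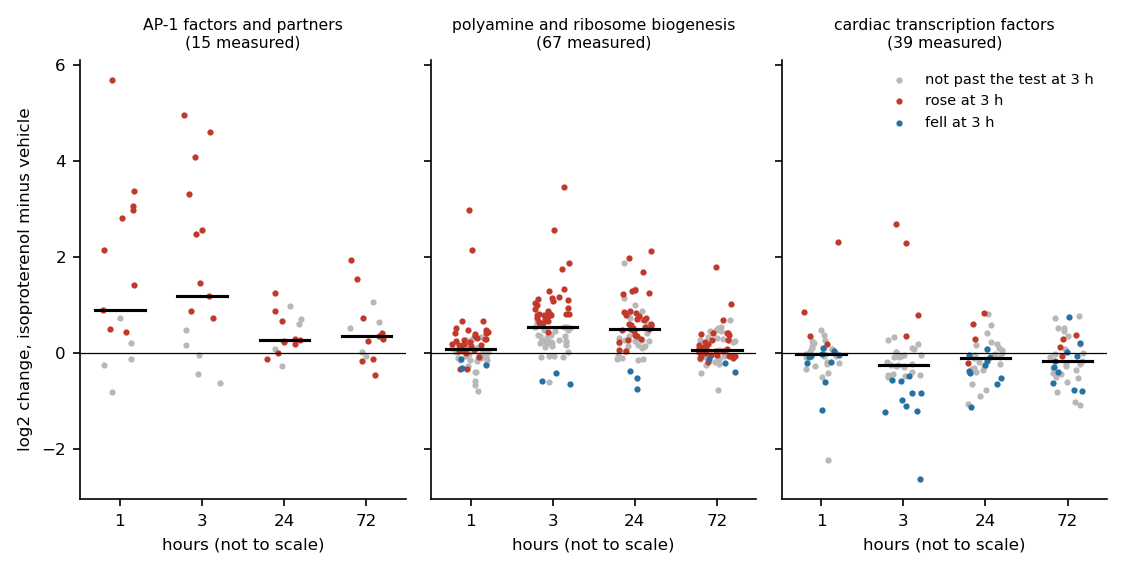
Log2 change of each measured member of 3 gene lists (15, 67 and 39 genes) at 1, 3, 24 and 72 h, isoproterenol minus vehicle, with colours by the call at 3 h and a black line at the list's median. The AP-1 list has its median at 1.18 at 3 h and 0.28 at 24 h, the ribosome and polyamine list at 0.55 and 0.50, and the cardiac transcription factor list at -0.25 at 3 h.

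Further genes with the largest rises or the smallest adjusted p-values lie outside the lists above. Coq10b, a coenzyme Q-binding protein of mitochondria, was 11.76, 11.66, 11.36 and 11.48 on isoproterenol arrays, against 8.22, 8.25 and 7.63 on vehicle arrays. The groups were tight, and the change was 3.53 ± 0.16 (adjusted p = 8.51e-16). Gfpt2, which opens the hexosamine pathway, was 11.05, 11.74, 11.49 and 11.94 on isoproterenol arrays, against 7.5, 7.52 and 7.75 on vehicle arrays. Its change was 3.97 ± 0.24 (adjusted p = 2.55e-13). Sphk1, which makes sphingosine-1-phosphate, was 8.64, 9.49, 8.57 and 9.30 on isoproterenol arrays, against 5.22, 5.11 and 4.72 on vehicle arrays. Its vehicle arrays were below the filter level, and the change of 3.98 ± 0.25 (adjusted p = 5.34e-13) is a lower bound. Ugdh, which makes UDP-glucuronate for matrix glycans, changed by 3.5 ± 0.28. Noct, a circadian NADPH phosphatase, was 10.87, 11.59, 11.13 and 11.44 on isoproterenol arrays, against 7.64, 7.85 and 8.14 on vehicle arrays. The change was 3.38 ± 0.18 (adjusted p = 1.42e-14). Ell2 was 9.49, 9.57, 9.20 and 9.28 on isoproterenol arrays, against 6.66, 6.50 and 6.83 on vehicle arrays. Its change was 2.72 ± 0.15 (adjusted p = 2.93e-14), again without overlap. Tiparp, an ADP-ribosyltransferase, changed by 2.93 ± 0.17. In the list of mRNA decay and RNA-binding regulators 3 of 23 rose (13.04%), Zfp36, Btg3 and Zfp36l1, and 0 fell, beside 6.94% and 6.33% of all genes tested. There were 0 rises without normalization between arrays. Of 35 genes of glycolysis and glucose uptake 4 rose (11.43%), Gfpt2, Slc2a3, Slc2a1 and Pfkfb3. In the same list 2 fell (5.714%), or 0 to 2 when an array was left out. The neuronal-type glucose carrier Slc2a3 changed by 2.64 ± 0.28 (adjusted p = 3.79e-08). Slc2a1 and Pfkfb3 did not pass without normalization between arrays (limma adjusted p = 0.0688 and 0.219). As the mean of its probe sets Pfkfb3 changed by 0.10 and did not pass either (limma adjusted p = 0.804).

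Targets of the glucocorticoid receptor, a list that shares members with several others, held 12 rises and 2 falls among 21 measured, with a median change of 0.96 and 6 rises and 2 falls without normalization between arrays. Sgk1, a kinase that regulates ion transport, was 10.49, 10.41, 10.14 and 10.64 on isoproterenol arrays, against 7.36, 7.93 and 7.69 on vehicle arrays. Its groups did not overlap, and the change was 2.76 ± 0.24 (adjusted p = 5.81e-10). Map3k6 changed by 2.11 ± 0.25 and Angptl4, which blocks lipoprotein lipase, by 4.01 ± 0.40. The 2 falls were Klf15 and Pik3ip1. In the circadian clock list 4 of 20 rose (20%) and 4 fell (20%), beside 6.94% and 6.33% of all genes tested. Dbp, an output factor of the clock, was 6.47, 5.24, 5.46 and 6.08 on isoproterenol arrays, against 7.76, 7.33 and 7.47 on vehicle arrays. It was lower on all isoproterenol arrays, with a change of -1.70 ± 0.37 (adjusted p = 0.00182). The repressors Nr1d1 and Nr1d2 changed by -1.19 ± 0.20 and -1.27 ± 0.23, and Tef also fell, though its limma adjusted p was 0.099 with vehicle replicate 3 left out and 0.0555 to 0.0747 with isoproterenol replicate 2, 3 or 4 left out. The rises were Bhlhe40 at 1.36 ± 0.25, Nfil3 at 1.29 ± 0.20, Per2 at 1.12 ± 0.26 and Cry2, and none of the 4 passed without normalization between arrays. Cry2 also missed the threshold without vehicle replicate 1 or 2 or isoproterenol replicate 1 (0.0643 to 0.115). As the means of their probe sets neither Cry2 (0.32, limma adjusted p = 0.293) nor Tef (-0.45, limma adjusted p = 0.106) passed.

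Genes of stretch, hypertrophy and matrix remodelling rose in part. Of 43 natriuretic peptide, stretch and hypertrophy genes 12 rose and 1 fell, with 5 rises without normalization between arrays. Xirp1, an actin-binding protein of intercalated discs, was 12.80, 13.22, 13.07 and 13.02 on isoproterenol arrays, against 10.29, 10.37 and 10.38 on vehicle arrays. It was bright in both groups, without overlap, with a change of 2.68 ± 0.17 (adjusted p = 7.58e-13). Tubb6, a tubulin, changed by 2.79 ± 0.41, Hbegf, an EGF receptor ligand, by 2.28 ± 0.30, and Flnc, a filamin of the Z-disc, by 1.72 ± 0.19. Ccn1, a matricellular protein, changed by 2.67 ± 0.66 but missed the threshold without vehicle replicate 3 (adjusted p = 0.0557). Nppa was 10.65, 8.48, 10.45 and 10.49 on isoproterenol arrays, against 10.25, 10.76 and 8.93 on vehicle arrays. The groups overlapped, with isoproterenol replicate 2 and vehicle replicate 3 low, and the change was 0.04 ± 0.51 (adjusted p = 0.978). In the matrix list 9 of 59 rose (15.25%) and 3 fell (5.085%), beside 6.94% and 6.33% of all genes tested. There were 6 rises without normalization and 1 fall with median centring. Timp1, an inhibitor of matrix metalloproteinases, was 10.39, 11.34, 11.03 and 11.73 on isoproterenol arrays, against 6.54, 7.43 and 6.62 on vehicle arrays. The change was 4.26 ± 0.54 (adjusted p = 9.15e-07). Adamts9, a protease that cleaves versican, was 9.86, 10.19, 9.85 and 10.02 on isoproterenol arrays, against 7.30, 7.41 and 7.63 on vehicle arrays. Its groups were tight, and its change was 2.53 ± 0.16 (adjusted p = 4.6e-13). Versican itself, Vcan, changed by 2.73 ± 0.36, Adamts4 by 3.00 ± 0.33, and Plaur, the urokinase receptor, by 3.16 ± 0.29 from a vehicle mean below the filter level. In the TGF-beta and activin list 10 of 37 rose and 1 fell, led by the activin subunits Inhbb at 2.43 ± 0.41 and Inhba at 2.26 ± 0.32, with 4 rises without normalization.

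**Figure D4:**
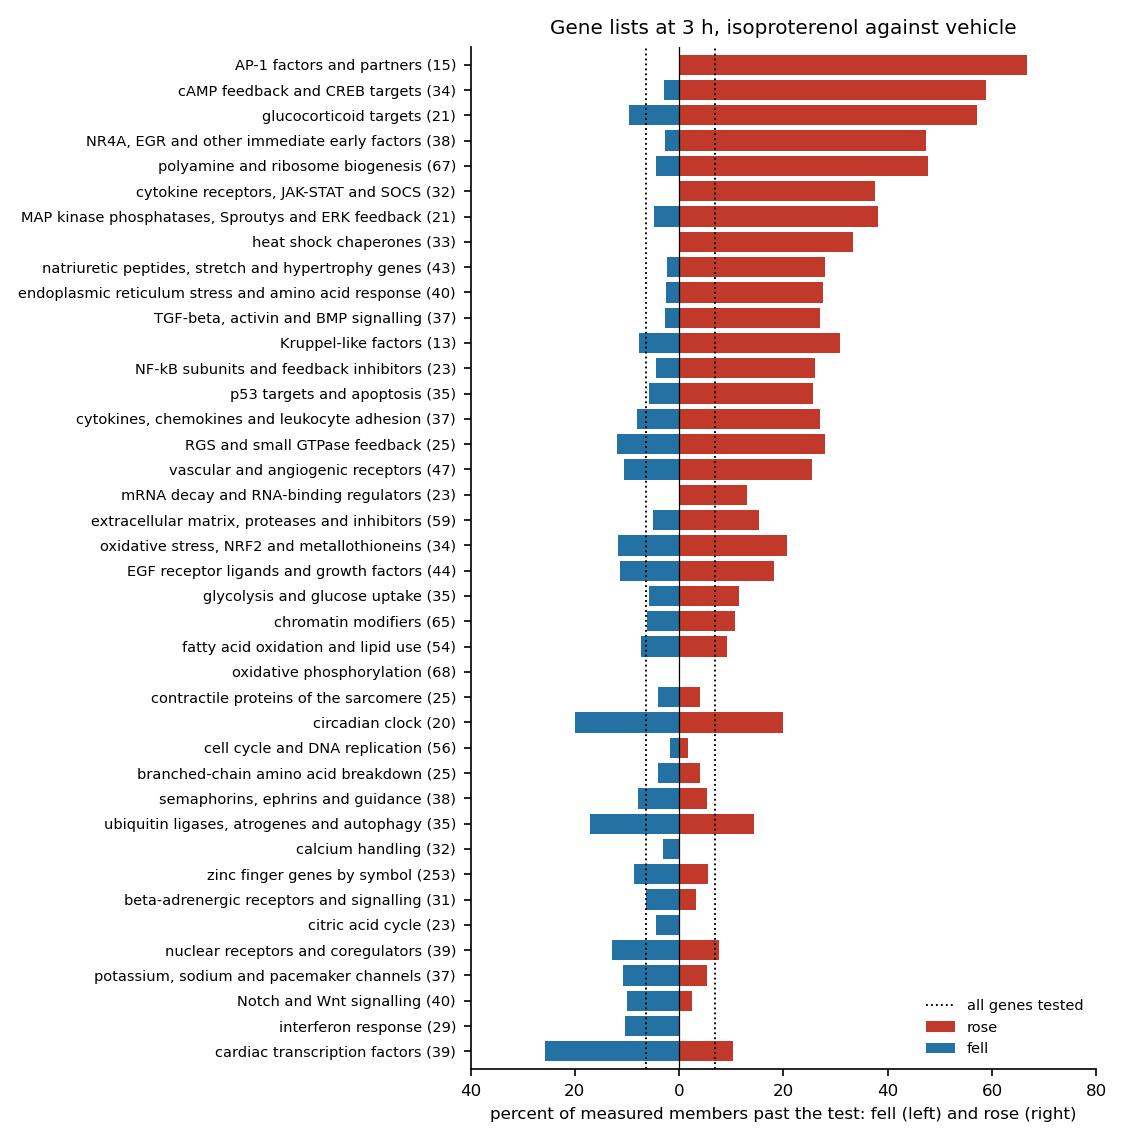
Percent of measured members (number in brackets) that rose, to the right, or fell, to the left, at 3 h for 40 gene lists, ordered by the difference. The dotted lines mark 6.94% and 6.33%, the shares of all 12451 genes that rose and fell, and the AP-1 list at the top has 66.67% of its members higher and the cardiac transcription factor list at the bottom 25.64% lower.

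The falls were smaller than the rises. Nxpe1, a gene with little known function, was 5.22, 4.44, 5.84 and 5.61 on isoproterenol arrays, against 8.09, 7.65 and 8.35 on vehicle arrays. All isoproterenol arrays were lower than all vehicle arrays, and since the isoproterenol mean was below the filter level, the change of -2.76 ± 0.28 (adjusted p = 2.59e-08) is a bound. Lrrc10, a leucine-rich repeat protein of heart muscle cells, was 9.48, 9.17, 8.70 and 9.21 on isoproterenol arrays, against 12.01, 11.75 and 11.52 on vehicle arrays. All isoproterenol arrays lay well below all vehicle arrays, with a change of -2.62 ± 0.19 (adjusted p = 1.04e-11). Klf15, a repressor of cardiac growth genes that also activates lipid and amino acid use, was 7.59, 7.67, 7.10 and 7.17 on isoproterenol arrays, against 9.46, 9.30 and 9.68 on vehicle arrays. The change was -2.10 ± 0.24 (adjusted p = 1.81e-07). Ccdc102a, a coiled-coil protein, was 4.54, 4.52, 4.65 and 4.32 on isoproterenol arrays, against 6.71, 6.11 and 6.65 on vehicle arrays. Isoproterenol arrays were below the filter level and close together, with a change of -1.98 ± 0.19 (adjusted p = 7.24e-09). Pik3ip1, an inhibitor of PI3 kinase, was 7.18, 7.24, 7.07 and 7.01 on isoproterenol arrays, against 8.91, 8.53 and 9.10 on vehicle arrays. Its change was -1.73 ± 0.21 (adjusted p = 6.93e-07). Flcn, folliculin, which acts in nutrient sensing by mTORC1, was 8.96, 8.84, 8.85 and 9.04 on isoproterenol arrays, against 10.13, 10.06 and 10.17 on vehicle arrays. Its change of -1.20 ± 0.14 (adjusted p = 3.38e-07) came with little spread in either group. The muscle genes Klhl38 and Ky changed by -1.80 ± 0.32 and -1.78 ± 0.32, and Tnfsf10, the death ligand TRAIL, by -1.83 ± 0.31. Btnl9, Cyyr1 and Ctns, also among the largest or most certain falls, changed by -2.39 ± 0.29, -1.72 ± 0.22 and -1.92 ± 0.39.

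Genes of vessels moved both ways. In the list of vascular and angiogenic genes 12 of 47 rose (25.53%) and 5 fell (10.64%), beside 6.94% and 6.33% of all genes tested. Without normalization between arrays 2 rose and 3 fell. Aplnr, the apelin receptor, was 7.89, 5.66, 7.23 and 6.16 on isoproterenol arrays, against 9.03, 9.42 and 8.48 on vehicle arrays. The isoproterenol arrays spread widely, replicate 2 lowest, but stayed below the vehicle arrays, with a change of -2.25 ± 0.32 (adjusted p = 8.8e-06). Nrp1, a co-receptor for VEGF and semaphorins, was 8.90, 8.71, 8.83 and 8.39 on isoproterenol arrays, against 10.23, 10.87 and 10.35 on vehicle arrays. Its change was -1.78 ± 0.17 (adjusted p = 1.05e-08). Tie1, an endothelial receptor, changed by -1.28 ± 0.21. Emcn, an endothelial sialomucin, changed by -1.23 ± 0.18 (adjusted p = 1.04e-05, but 0.0535 without normalization). The remaining fall was Sphk2. Sphk1, described above, had the largest rise of the list. Procr, the protein C receptor of endothelium, was 9.50, 8.92, 8.79 and 9.28 on isoproterenol arrays, against 6.68, 6.45 and 7.02 on vehicle arrays. Its change was 2.40 ± 0.29 (adjusted p = 4.25e-07), without overlap. The sphingosine-1-phosphate receptor S1pr3 changed by 1.30 ± 0.26, the thrombin receptor F2r by 1.29 ± 0.29 and thrombomodulin, Thbd, by 1.15 ± 0.19, and these 3 did not pass without normalization (limma adjusted p = 0.11, 0.0713 and 0.101). The other rises were S1pr1, Sox17, Cldn5, Hif1a, F2rl1, Ace and Epas1. Outside the list, Car4, a carbonic anhydrase of capillaries, changed by -2.05 ± 0.33, and Plxnd1, a semaphorin receptor of vessels, by -1.66 ± 0.23. Of 11 endothelial markers Sox17 and Cldn5 rose and Tie1, Emcn and Egfl7 fell, and Egfl7 lost its call in 8 alternatives, among them the removal of vehicle replicate 1 or 2 or isoproterenol replicate 3 or 4 (adjusted p = 0.104 to 0.162). The summed intensity of the list was 5589 to 6196 on isoproterenol arrays and 5786 to 6556 on vehicle arrays. Fibroblast and mural markers summed to 10150 to 15150 and adipocyte markers to 1124 to 1832 on isoproterenol arrays, against 13910 to 18070 and 2013 to 3241 on vehicle arrays. Of the fibroblast and mural markers Pdgfrb and Rgs5 fell and Tcf21 rose, and of the adipocyte markers Fabp4 fell. Fabp4 missed the threshold with vehicle replicate 1 or 2 left out (limma adjusted p = 0.0689 and 0.0623) and with median centring (0.153). Tcf21 missed it with vehicle replicate 3 left out (0.126) and with median centring (0.0706). Rgs5 missed it with median centring, as given above, and Pdgfrb as the mean of its probe sets (-0.25, adjusted p = 0.473). The part of tissue sampling in the falls was not tested.

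The cardiac transcription factor list held the largest share of falls among 40 gene lists with 10 or more members measured, cell type markers aside. It had 10 of 39 members lower and 4 higher, a median change of -0.25, and 2 and 2 without normalization between arrays. Some members are not transcription factors, among them Lrrc10 and Xirp1. Irx4, a ventricular homeobox factor, was 7.57, 7.33, 7.59 and 6.63 on isoproterenol arrays, against 8.86, 8.18 and 8.48 on vehicle arrays. All isoproterenol arrays were below the vehicle arrays, with a change of -1.23 ± 0.20 (adjusted p = 6.49e-05). Hand2, a helix-loop-helix factor of heart development, was 7.56, 7.73, 7.51 and 7.70 on isoproterenol arrays, against 8.48, 8.55 and 8.80 on vehicle arrays. Its arrays were tight, with a change of -0.98 ± 0.17 (adjusted p = 0.000134), but it did not pass without normalization (0.13). Gata5 changed by -1.10 ± 0.23 and likewise did not pass then (0.0532). The other falls were Lrrc10, Irx3, Gata6, Nkx2-5, Mef2c, Meis1 and Nfatc3. Irx3, at -1.21 ± 0.39 (adjusted p = 0.0383), missed the threshold under 12 alternatives, among them median centring (0.0661) and the removal of any array but isoproterenol replicate 4 (0.057 to 0.128). With median centring 4 fell and 5 rose, so the balance of the list depends on the scaling, while Lrrc10 and Irx4 kept their calls in every alternative run. The 4 rises were Xirp1, Tead4, Rcan1 and Ankrd1, and 2 of the list rose without isoproterenol replicate 2 or vehicle replicate 3. Tead4, an effector of the Hippo pathway, was 7.67, 8.44, 7.49 and 8.29 on isoproterenol arrays, against 6.35, 6.17 and 4.50 on vehicle arrays. Its change was 2.30 ± 0.28 (adjusted p = 4.53e-07). Of 253 zinc finger genes picked by symbol 22 fell (8.696%) and 14 rose (5.534%), beside 6.33% and 6.94% of all genes tested. Without vehicle replicate 1 there were 14 falls and 9 rises. The clearest of the falls were Zfp46 at -1.23 ± 0.16 and Zfp691 at -1.19 ± 0.18, and of the rises Zbtb21 at 1.75 ± 0.24 and Zfp697 at 1.68 ± 0.18.

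Few genes of oxidative phosphorylation, calcium handling and the sarcomere passed the test at 3 h. Of 68 genes of oxidative phosphorylation 0 rose and 0 fell, of 32 calcium-handling genes 0 rose and 1, Camk2g, fell, and of 25 sarcomere proteins Lmod2 rose and Lmod3 fell. Lmod2 did not pass without normalization (limma adjusted p = 0.186), and Lmod3 did not pass under 7 alternatives, among them without vehicle replicate 3 (0.182), without isoproterenol replicate 2 or 3 (0.0941 and 0.0724) and as the mean of its probe sets (-0.19, 0.65). Camk2g did not pass without normalization (0.0795) or as the mean of its probe sets (-0.29, 0.409). Atp2a2, the calcium pump of the sarcoplasmic reticulum, was 13.43, 13.46, 13.46 and 13.40 on isoproterenol arrays, against 13.48, 13.46 and 13.43 on vehicle arrays. The groups overlapped, and the change was -0.02 ± 0.07 (adjusted p = 0.895). As the mean of its probe sets, however, Atp2a2 changed by 0.42 and passed (limma adjusted p = 0.0469). Ryr2, the calcium release channel, changed by -0.06 ± 0.16 (adjusted p = 0.873). Among 54 genes of fatty acid use 5 rose (9.26%) and 4 fell (7.41%), beside 6.94% and 6.33% of all genes tested. Without isoproterenol replicate 2 or 4 or vehicle replicate 1 or 2 only 3 of the list rose. With any of these or isoproterenol replicate 3 left out, 1 or 2 fell. Among 37 potassium, sodium and pacemaker channels 2 rose (5.41%) and 4 fell (10.8%), and 0 and 0 without normalization. Kcnj11, a pore subunit of the ATP-sensitive potassium channel, changed by -1.03 ± 0.23 (adjusted p = 0.00226, but 0.141 without normalization). The master regulator of mitochondrial genes, Ppargc1a, was 10.15, 10.14, 10.66 and 10.30 on isoproterenol arrays, against 9.50, 9.15 and 9.48 on vehicle arrays. Its change was 0.94 ± 0.25 (adjusted p = 0.011) and missed the threshold without vehicle replicate 2 (0.0695). Its relative Pprc1 changed by 1.84 ± 0.19.

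The isoproterenol arrays kept a loose order among the genes that rose. Replicate 1 was the lowest of the 4 in 365 of the 864 risers (42.2%), replicate 2 the highest in 299 (34.6%) and replicate 4 in 273 (31.6%). Among the 788 fallers replicate 1 was the highest of the 4 in 281 (35.7%), and replicate 2 the lowest in 250 (31.7%). Among vehicle arrays replicate 3 was the lowest in 356 of the fallers (45.2%). The order was counted among called genes alone, without the shares over all genes tested, so it is not read as an order of response. Isoproterenol replicate 1 also had the lowest median deposited intensity, 21.2, and the part of this in the order was not tested.

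More probe sets passed the test at 3 h than at 1 h. Of the 445 probe sets that had risen at 1 h, 351 rose at 3 h too (78.9% of the 1 h list and 23.7% of the 3 h list), and of the 198 that had fallen at 1 h, 91 fell at 3 h too (46.0% and 7.10%). Each time has its own isoproterenol and vehicle arrays, so the changes at 1 h and 3 h are differences between separate arrays. The lists are still not independent. Normalization, filter and each probe set's estimate of spread were shared by all arrays of the series. A probe set with little spread is thus favoured in both lists, and the part of this in the overlap was not tested. The test of the difference itself called 141 probe sets, 0.58% of those tested, 95 of them more positive at 3 h and 46 more negative, with 54 and 28 without vehicle replicate 1, 26 of the more negative without vehicle replicate 2, and 5 and 0 without normalization between arrays. By gene, 61 of the risers and 22 of the fallers differed from 1 h. These genes were chosen for passing at 3 h, which favours a larger change at 3 h than at 1 h, so the directions below are descriptions. Spry2 changed by -0.22 ± 0.21 at 1 h and 1.64 ± 0.22 at 3 h, a difference of 1.86 (adjusted p = 0.00204). Sgk1 changed by 0.75 ± 0.23 at 1 h and 2.76 ± 0.24 at 3 h, a difference of 2.01 (adjusted p = 0.00204). Rrp12 changed by 0.19 ± 0.31 and 2.57 ± 0.32, a difference of 2.39 (adjusted p = 0.00634). Nr4a2 changed by 4.21 ± 0.26 at 1 h and 2.46 ± 0.28 at 3 h, a difference of -1.75 (adjusted p = 0.0234). Among falls, Ccdc102a changed by -0.04 ± 0.18 at 1 h and -1.98 ± 0.19 at 3 h (difference -1.94, adjusted p = 0.000813), and Lrrc10 by -1.18 ± 0.18 and -2.62 ± 0.19 (difference -1.44, adjusted p = 0.00458).

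The 24 h effect was also compared with the 3 h effect. The test of the 24 h effect minus the 3 h effect called 1649 probe sets, 6.79% of those tested, 873 of them more positive at 24 h and 776 more negative, with 512 and 510 without vehicle replicate 2, 554 of the more positive without vehicle replicate 1, 562 of the more positive with median centring, and 1601 and 59 without normalization between arrays. By gene, 302 of the risers and 171 of the fallers differed, and since these genes were chosen for their change at 3 h, the direction of their differences is not counted as a result. Nr4a3 changed by 0.33 ± 0.41 at 24 h and 0.22 ± 0.40 at 72 h, and Crem by 0.29 ± 0.17 and 0.08 ± 0.17. Timp1 was still changed by 4.24 ± 0.54 at 24 h, with no called difference from 3 h (-0.02 ± 0.76, adjusted p = 0.991). Lrrc10 changed by -0.40 ± 0.19 at 24 h, a difference of 2.22 from 3 h (adjusted p = 2.38e-06). Spp1, osteopontin, was 5.30, 4.61, 5.57 and 5.61 on isoproterenol arrays, against 5.09, 5.06 and 5.83 on vehicle arrays at 3 h and did not pass (-0.06 ± 0.57, adjusted p = 0.969), and changed by 7.65 ± 0.57 at 24 h. Col1a1, a collagen chain, changed by -1.01 ± 0.35 at 3 h (adjusted p = 0.0556) and by 1.82 ± 0.33 at 72 h. Its fall at 3 h passed under some alternatives, among them array weights (limma adjusted p = 0.00576). It also passed without vehicle replicate 3 (0.0147) or isoproterenol replicate 1 (0.0115).

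**Figure D5:**
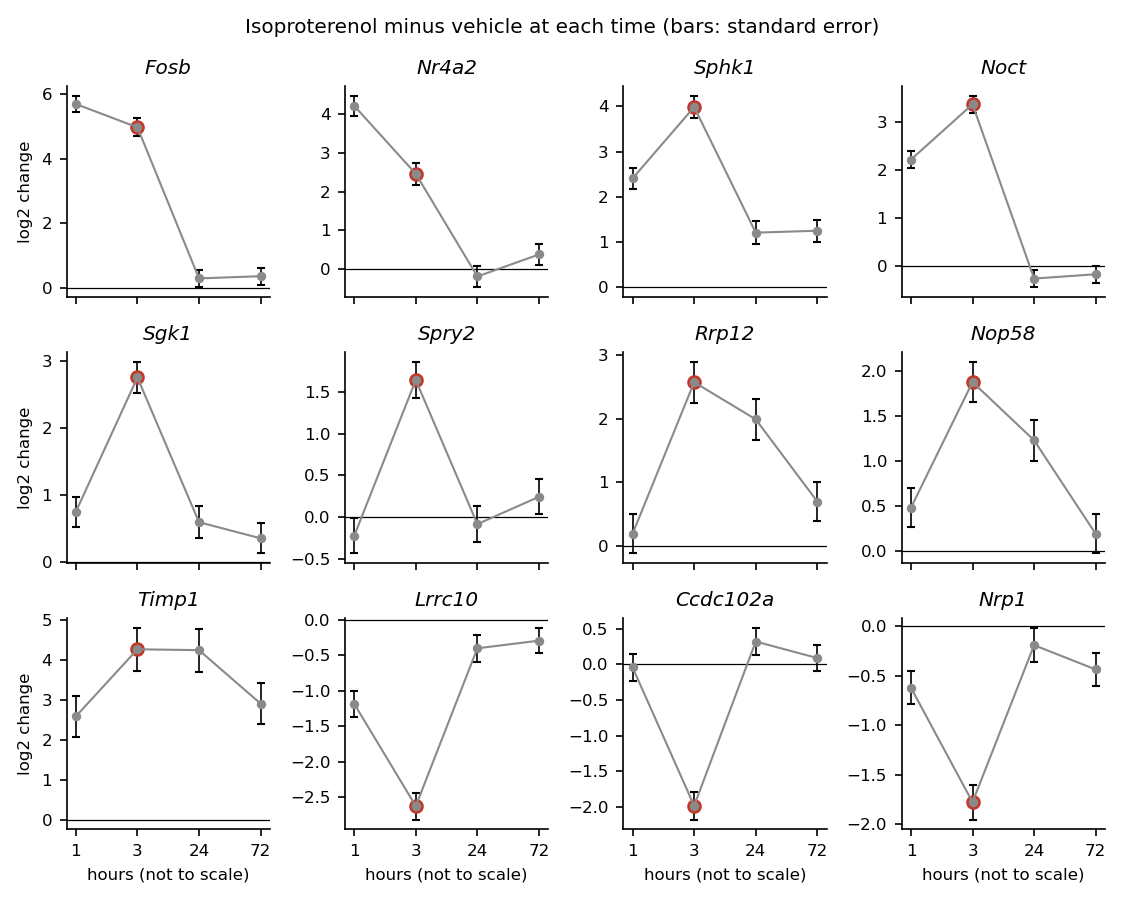
Log2 change, isoproterenol minus vehicle, with its standard error on the y axis (scaled per gene) at 1, 3, 24 and 72 h on an x axis that is not to scale, for 12 genes, with 3 h in red. Fosb and Nr4a2 have their highest change at 1 h (5.69 and 4.21), Sgk1 and Spry2 at 3 h (2.76 and 1.64), Timp1 has 4.26 at 3 h and 4.24 at 24 h, and Lrrc10 and Ccdc102a have their lowest change at 3 h (-2.62 and -1.98).

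The threshold passed through a continuous range of changes. The genes just inside it were Dipk1b at -0.60 (adjusted p = 0.0497) and Ndfip2 at 0.53 (adjusted p = 0.0499), and those just outside were Nudt9 at -0.51 and Phrf1 at -0.51 (adjusted p = 0.0502 for both). Of the 255 named genes that passed, 116 kept the call under each of the 20 alternatives in which they were tested (248 of the 255 passed the stricter filter) and 139 lost it in at least 1, most often without normalization between arrays.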

How the data were processed

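RNA from rat hearts was measured on Affymetrix RAT230_2 arrays. Per the labels' protocols, hearts were kept in RNAlater, RNA was extracted with Qiagen RNeasy kits, and 10 ug of total RNA went into biotin-labelled cRNA. The deposited values are linear intensities, 1 per probe set and array, and the sources used here do not give the algorithm and scaling by which the authors summarised the probes, which limits what can be said of dim probe sets. All sample columns were used and 0 were left out.

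Intensities were transformed to log2(intensity + 16) and quantile normalized over all 30 arrays. The 57 control probe sets were set aside, and probe sets above an intensity of 23, the 40th percentile, on at least 3 arrays were kept, which left 24292. A model with 1 mean for each group of treatment and time was fitted with limma 3.58.1 (R 4.3.3) with an intensity trend in the variance, giving 22 residual degrees of freedom, and adjusted p-values follow Benjamini-Hochberg. The number of arrays limits the precision.

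A platform annotation table paired 17584 of the tested probe sets with 1 gene, 12451 genes in all. On the whole array 436 probe sets had several genes and 9780 were not listed, and these are not named. Each gene was read from its tested probe set with the highest mean over all arrays. Genes were named by rule: the 15 largest rises and falls with groups apart, the 10 smallest adjusted p-values in each direction, up to 5 rises and 5 falls of each of 52 gene lists, and a fixed set of cardiac genes. Further members of a list are given by name where the list is described. Not every gene the rule names is described, and some results are not reported here. The members and lists were chosen with earlier results of these data known, and lists overlap, so no p-value is given for a list. Alternatives changed the normalization, pseudocount (1 and 64), filter (none and the 60th percentile), arrays in the fit, variance model, replicate block and probe set summary, and left out each of the 7 arrays in turn.

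The model was tested on simulated data with known changes before use. Promoter windows are RefSeq sequences on GRCr8. Figures were drawn with matplotlib 3.10.9.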

Additional observations from a re-analysis of the deposited data

Results flagged for a closer look

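In the 4 isoproterenol arrays of each of the 265 named genes, the highest or lowest array was compared with the other 3 by Dixon's test, and 14 groups had 1 array that stood apart. Chance gives about 1 in 20. Isoproterenol replicate 1 stood apart, in log2(intensity + 16), for Inhba at 8.03 (the others 8.68 to 8.75), Nr1d1 at 9.25 (the others 8.21 to 8.33), Cry2 at 8.62 (the others 7.76 to 7.86) and Gja5 at 7.72 (the others 8.19 to 8.27). Isoproterenol replicate 2 stood apart, in log2(intensity + 16), for Klf4 at 9.81 (the others 9.40 to 9.43), Dnajb4 at 12.19 (the others 11.58 to 11.68), Hbegf at 8.53 (the others 7.37 to 7.52), Igf1 at 8.06 (the others 8.44 to 8.51), Ulk1 at 8.89 (the others 8.46 to 8.51) and Nppa at 8.48 (the others 10.45 to 10.65). Isoproterenol replicate 3 stood apart, in log2(intensity + 16), for Heyl at 5.45 (the others 6.56 to 6.65) and Tcf21 at 7.34 (the others 7.83 to 7.93). Isoproterenol replicate 4 stood apart, in log2(intensity + 16), for Irx3 at 8.31 (the others 7.36 to 7.47) and Mxi1 at 8.02 (the others 8.35 to 8.39). No cause of these single arrays was tested.

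The test of the 3 h effect minus the 1 h effect called 24 named genes (limma adjusted p under 0.05). The difference was positive, in log2 units, for Sphk1 (1.58), Noct (1.15), Spry2 (1.86), Hsf2 (1.35), Slc7a5 (1.5), Slc7a1 (1.18), Hbegf (1.73), Angpt2 (1.36), Smad1 (1.00), Sgk1 (2.01), Flnc (1.11), Rrp12 (2.39), Nop58 (1.39), Cblb (1.16), Chd7 (1.12), Zfp697 (1.58) and Zfp655 (1.27). It was negative for Lrrc10 (-1.44), Ccdc102a (-1.94), Nrp1 (-1.16), Flcn (-0.94), Nr4a2 (-1.75), Heyl (-1.61) and Emcn (-1.07). Of these, Nr4a2 had a smaller rise at 3 h than at 1 h, and the other negative differences are of genes that fell at 3 h.

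Of 38 genes with the largest or most certain changes at 3 h, 30 differed between 24 h and 3 h (limma adjusted p under 0.05). The 24 h effect minus the 3 h effect was negative, for genes that rose at 3 h, for Nr4a3 (-5.65), Fosb (-4.68), Fos (-3.94), Mt2A (-2.82), Atf3 (-2.83), Angptl4 (-2.48), Sphk1 (-2.78), Gfpt2 (-3.69), Cxcl1 (-3.01), Hspa1a (-3.26), Crem (-3.30), Egr1 (-3.43), Coq10b (-2.88), Ugdh (-2.56), Noct (-3.63), Ell2 (-2.51), Tiparp (-3.17), Maff (-3.45) and Adamts9 (-2.44). It was positive, for genes that fell at 3 h, for Nxpe1 (2.37), Lrrc10 (2.22), Btnl9 (1.34), Aplnr (1.63), Klf15 (1.5), Car4 (1.60), Ccdc102a (2.30), Ctns (2.20), Nrp1 (1.59), Pik3ip1 (1.07) and Cyyr1 (1.27). These genes were chosen for their change at 3 h, which favours a smaller one at 24 h.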

How the results depend on the processing

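Of 255 named genes with a call at 3 h, 116 kept it in each of the 20 alternatives in which they were tested (248 of the 255 passed the 60th percentile filter), 139 lost it in at least 1, 132 of them without normalization between arrays, and none changed sign while called. At 3 h the 1482 rises and 1282 falls became 295 and 183 without normalization, 893 and 461 with only the 3 h arrays in the fit, and 626 falls with median centring. Leaving out 1 array gave 1116 to 1514 rises and 753 to 1511 falls, the fewest falls without vehicle replicate 2 (753) and vehicle replicate 1 (796). The 3 h effect minus the 1 h effect, 95 more positive and 46 more negative, gave 5 and 0 without normalization, 18 more negative with median centring, 154 more positive with trimmed mean scaling, 327 and 166 with array weights, and 54 to 128 and 26 to 68 without 1 array. The 24 h effect minus the 3 h effect, 873 and 776, gave 1601 and 59 without normalization, 562 more positive with median centring, 1611 and 1303 with array weights, and 512 to 1166 and 510 to 998 without 1 array. With the replicate number as a block the counts were 1332 rises and 1093 falls at 3 h, 66 and 31 for the difference from 1 h, and 720 and 666 for 24 h minus 3 h. Deviations of same-numbered arrays from their group means correlated at 0.035, 0.073 and 0.118. Those of differently numbered arrays correlated at -0.093 to 0.028, below all the same-numbered ones. The labels do not say whether same-numbered arrays of the 2 groups were paired, and pairing was not tested further. The fit with only the 3 h arrays has fewer arrays by construction, and for the other alternatives the cause was not tested. Probe sets near the filter level have little signal over background, and their changes are bounds.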
